A study of Homo sapiens with 9 samples.

Results

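The peaks described here are those p300 peaks whose midpoint lay in 8 chromosome ends, in hg19 coordinates. These are chromosome 2 from 235 Mb (2q), chromosome 7 below 5 Mb (7p), chromosome 9 from 135 Mb (9q), chromosome 11 below 5 Mb (11p), chromosome 16 below 5 Mb (16p) and from 85 Mb (16q), chromosome 20 from 60 Mb (20q) and chromosome 22 from 45 Mb (22q), each to the end of the chromosome. They held 629 of the 19861 peaks in the 5 lists of the series. The ends were chosen by the density of peaks of these same lists along the chromosomes, treated list 2 above all, so their numbers and density are a description and were not tested against the rest of the genome. Together the ends cover 43.5 Mb, or 1.45% of the span of all peaks.

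p300 is an acetyltransferase that acts on histones. It is recruited by transcription factors to active promoters and enhancers and serves as a marker of them. The outer parts of many human chromosomes are known to be rich in genes and in G and C bases, and the gene content of the 8 ends was not measured here. Background knowledge places well-studied genes in them, among them HDAC4, a histone deacetylase, on 2q, PDGFA, a growth factor, on 7p, and NOTCH1, a receptor that controls cell fate, on 9q. The 11p end carries the imprinted IGF2 and H19, the 16p end carries the alpha-globin genes and CREBBP, the close relative of p300, and the 16q end carries FOXF1, a transcription factor. The 20q end carries EEF1A2, a translation elongation factor, and the 22q end carries PPARA, a nuclear receptor. No peak was assigned to a gene, because the gene table at hand is for another build.

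PC3 cells, a line from a metastatic human prostate carcinoma, received either no drug (2 libraries) or 30 µM MnTE-2-PyP for 24 h (3 libraries, T2E in the library names). MnTE-2-PyP is a manganese porphyrin that acts as a superoxide dismutase mimic. All cells of both groups were irradiated with 20 Gy and fixed with 1% formaldehyde 1 h later, so no unirradiated cells are compared. The libraries are described as biological replicates of this single cell line, and the 4 input libraries were not used here. Untreated lists 1 and 2 held 2313 and 2039 peaks, and treated lists 1, 2 and 3 held 4922, 10059 and 528. Read depth behind the peaks is unknown. Peak names carry an identifier that untreated list 1 shares with treated list 1 and untreated list 2 with treated list 3, while treated list 2 has its own. The labels do not say what it marks. Treated list 2 stands apart by its length and treated list 3 by its shortness, so comparisons of the groups are also given with lists left out.

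The 8 ends were not occupied alike in the 5 lists. Untreated list 1 had 29 peaks there, which is 1.25% of the list (95% Wilson interval 0.874 to 1.79%). Untreated list 2 had 55, or 2.70% (2.08 to 3.49%). Treated list 1 had 42, or 0.853% (0.632 to 1.15%), treated list 2 had 500, or 4.97% (4.56 to 5.41%), and treated list 3 had 3, or 0.568% (0.193 to 1.66%). Treated list 2 was thus the highest and the other treated lists were the lowest, with the untreated lists in between. Treated list 2 supplied 79.5% of all end peaks, against 50.6% of the peaks of the whole series. These intervals cover counting error only.

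The mean share was 1.98% ± 1.02 without the drug (SD, n = 2) and 2.13% ± 2.46 with it (SD, n = 3), a difference of 0.16 percentage points. The ends were picked on peak density in these lists, so shares are described and not tested. This difference was smaller than the spread within either group. Without treated list 2 it was -1.26 points, and without untreated list 1 it was -0.57. Between lists with one identifier, the treated share was lower in both pairs, by -0.40 points for untreated list 1 and treated list 1 and by -2.13 for untreated list 2 and treated list 3.

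Set against the rest of the genome, the ends were dense in 2 lists only. Peaks per Mb were 11.5 in the ends and 3.24 elsewhere in treated list 2, a ratio of 3.55, and 1.27 and 0.672 in untreated list 2, a ratio of 1.88. Untreated list 1 had 0.667 per Mb in the ends and 0.774 elsewhere, treated list 1 had 0.966 and 1.65, and treated list 3 had 0.0690 and 0.178. The ratio was below 1 in these 3 lists, at 0.862, 0.584 and 0.388. A higher density in the ends than elsewhere therefore holds for untreated list 2 and treated list 2 and not for the others. In the stretches of the same length directly inside the ends the untreated lists had 17 and 14 peaks and the treated lists 23, 165 and 5. Within 1 Mb of the 8 bounds, 7, 13, 7, 74 and 1 peaks lay just inside and 4, 1, 5, 46 and 1 just outside, in the same order of lists.

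**Figure D1:**
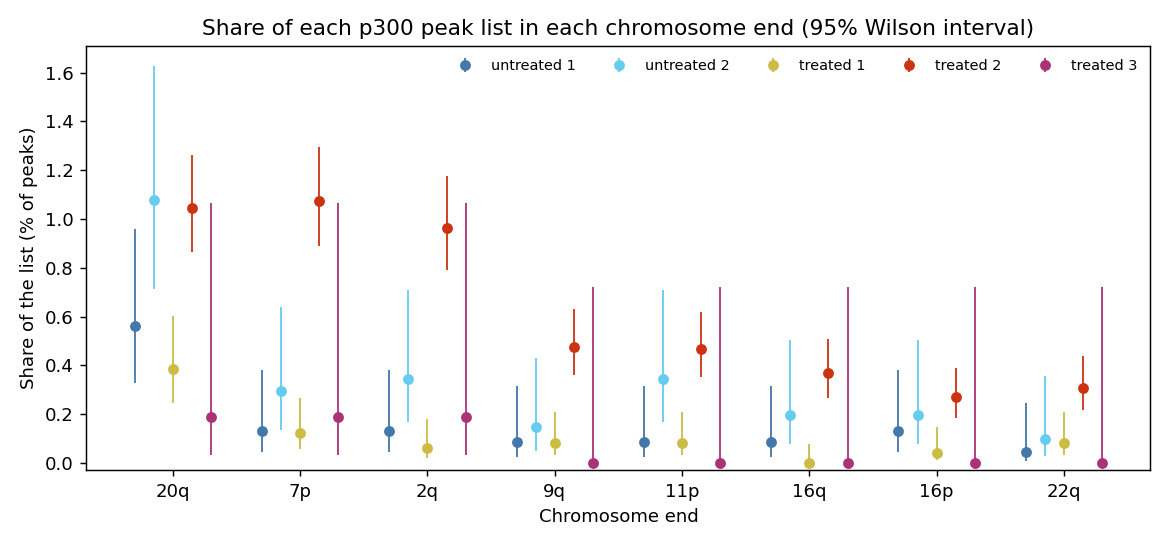
Share of each p300 peak list (percent of its peaks, y axis) in each of the 8 chromosome ends (x axis), with 95% Wilson intervals that cover counting error only. Treated list 2 is highest at 7 ends, and at 20q untreated list 2, with 1.08%, lies beside it at 1.04%.

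The end of the long arm of chromosome 20 was the densest end in every list, above the rest of the genome in each, although treated list 3 had a single peak there. It spans 2.92 Mb, 6.73% of the length of the ends, where untreated lists 1 and 2 had 13 and 22 peaks, treated list 1 had 19, treated list 2 had 105 and treated list 3 had 1. These were 44.8%, 40.0%, 45.2%, 21.0% and 33.3% of each list's end peaks. As shares of the whole list they came to 0.562% and 1.08% without the drug and to 0.386%, 1.04% and 0.189% with it. The lists of the 2 groups overlapped, and the mean was 0.821% ± 0.366 (SD, n = 2) without the drug and 0.540% ± 0.447 (SD, n = 3) with it. Density was 4.45, 7.52, 6.50, 35.9 and 0.342 peaks per Mb in the same order of lists. Once 20q was set aside, the other 7 ends had 0.395 and 0.814 peaks per Mb without the drug and 0.567, 9.74 and 0.0493 with it. Untreated list 2 then stood at 0.814 against 0.672 elsewhere in the genome, and treated list 2 at 9.74 against 3.24.

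The ends of 7p and 2q were largely those of treated list 2. On 7p it held 108 of 124 peaks (87.1%), and untreated lists 1 and 2 and treated lists 1 and 3 held 3, 6, 6 and 1. On 2q it held 97 of 111 (87.4%), and the others held 3, 7, 3 and 1. The share of treated list 2 on 7p was 1.07%, 8.28 times that of untreated list 1 and 3.65 times that of untreated list 2. On 2q its share was 0.964%, which is 7.43 and 2.81 times the untreated shares. These folds compare single lists and have no replicate error. On 7p the peaks of treated list 2 in successive Mb from the start of the chromosome numbered 34, 36, 21, 3 and 14.

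The other 5 ends held fewer peaks. On 9q the untreated lists had 2 and 3 peaks and the treated lists 4, 48 and 0. In the same order there were 2, 7, 4, 47 and 0 on 11p. On 16p there were 3, 4, 2, 27 and 0, on 16q 2, 4, 0, 37 and 0, and on 22q 1, 2, 4, 31 and 0. Treated list 2 was the highest in each. Its peaks were 27 of 36 on 16p and 37 of 43 on 16q, the lowest and the highest share among these 5. A count of 0 allows a share of up to 0.568% in treated list 3 and up to 0.0610% in treated list 1, taken as 3 peaks of the list's total. The share of treated list 2 was 0.268% on 16p and 0.477% on 9q, so the zeros of treated list 3 could not show a difference from it.

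Group means of the share were compared at each of the 8 ends. The treated mean was higher at 2q, 7p, 9q and 22q, by 0.17, 0.25, 0.069 and 0.059 percentage points. It was lower at 11p, 16p, 16q and 20q, with differences of -0.032, -0.060, -0.019 and -0.28 points. At every end the treated lists spread on both sides of the untreated values, except at 20q, where untreated list 2 was the highest. Without treated list 2 the difference at 2q was -0.11 points, at 7p -0.056, at 9q -0.076 and at 22q -0.030, so none of these 4 ends then had a higher treated mean. With each list left out in turn, the difference ran from -0.54 (without untreated list 1) to -0.022 (without untreated list 2) at 20q and from -0.14 (without treated list 2) to -0.0084 (without treated list 3) at 16p. It ran from -0.17 to 0.096 at 11p and from -0.14 to 0.043 at 16q, and so changed sign at these 2 ends.

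Peaks on the 8 arms thinned with distance from the outermost position in the 4 longer lists. That position was taken as the start of the chromosome or, on a long arm, as the last peak of any list. The longest end, 2q, covers 8.15 Mb, so the stretch from 9 to 12 Mb lies outside every end. In the outer 3 Mb of the 8 arms treated list 2 had 374 peaks (15.6 per Mb) and from 9 to 12 Mb it had 67 (2.79 per Mb). Untreated list 1 had 24 and 5, untreated list 2 had 41 and 12, and treated list 1 had 35 and 11. The outer stretch held 5.58 times as many in treated list 2, 4.80 and 3.42 times in untreated lists 1 and 2, and 3.18 times in treated list 1. Treated list 3 had 2 and 2. The 20q end lies wholly within the outer stretch. Without that arm the ratios were 4.39, 2.75, 2.38 and 2.67, and treated list 3 had 1 and 2 peaks. These ratios came from 268 and 61 peaks in treated list 2, and from 11 and 4 in untreated list 1. In untreated list 2 they were 19 and 8, and in treated list 1 16 and 6, which are few. A higher density toward the end was thus shared by 4 lists of both groups, although untreated list 1 and treated list 1 were no denser in the ends than in the genome at large. The arms were chosen for dense ends, so this slope is a description.

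**Figure D2:**
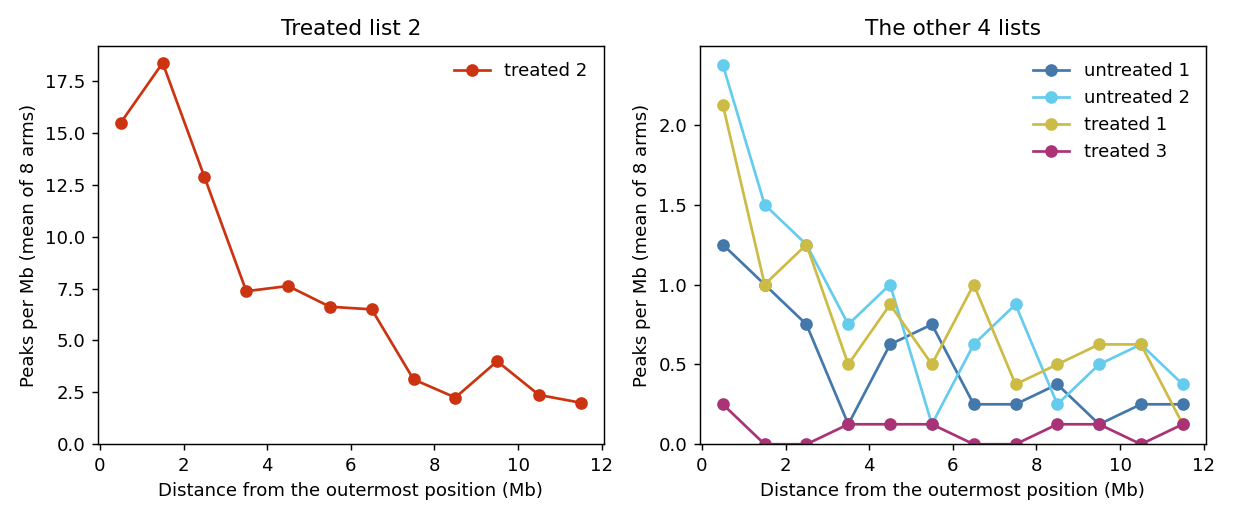
Peaks per Mb (y axis, mean over 8 chromosome arms) in 1 Mb steps of distance from the outermost position (x axis), for treated list 2 (left) and the other 4 lists (right; the y axes differ). Treated list 2 falls from 15.5 and 18.4 per Mb in the first 2 steps to 2.0 in the last.

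The end regions were mostly those of treated list 2 alone, and few of them recurred between libraries. Overlapping peaks, by 1 bp at least, were joined across the lists into regions, of which 595 lay in the ends. Of these, 22 (3.70%) were in 2 or more lists, against 10.4% of all 16701 regions of the series. Without treated list 2, 14 of 111 end regions (12.6%) were in 2 or more lists, against 12.6% of all 8119 regions, so the ends then stood level with the series. With any other list left out the ends gave 2.47 to 3.53%, and all regions 8.38 to 9.97%. There were 14 in 2 lists, 6 in 3, none in 4 and 2 in all 5 (0.336% of end regions, against 0.886% of all regions). Treated list 2 alone held 484 end regions (81.3%), against 51.7% of all regions. The ends were chosen where this list is dense, so its excess and the low share of recurring regions are not independent of that choice. The share in 2 or more lists was 2.38% on 16q and 2.80% on 2q, the lowest, and 5.66% on 9q and 6.25% on 16p, the highest. At 20q, the densest end, 5 of 152 regions were in more than 1 list.

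Seen from each list, 12 of 29 end peaks of untreated list 1 (41.4%) overlapped a peak of another list, 11 of 55 of untreated list 2 (20.0%), 14 of 42 of treated list 1 (33.3%), 16 of 500 of treated list 2 (3.20%, 95% Wilson interval 1.98 to 5.13%) and 3 of 3 of treated list 3. The rest of each list gave 43.0%, 33.6%, 27.7%, 14.7% and 84.6% in the same order. Sharing was therefore lower in the ends than elsewhere in 3 lists, with differences of -1.57 points in untreated list 1, -13.6 in untreated list 2 and -11.5 in treated list 2. It was higher in 2, by 5.67 points in treated list 1 and 15.4 in treated list 3. The mean difference was -1.11 points ± 12.1 (SD, n = 5; exact two-sided sign-flip permutation p = 0.938; the smallest p possible is 0.0625). Recurrent clusters, meaning regions in all 5 lists within 50 kb of one another, held no end peak. With peaks in or within 50 kb of such clusters left out, the rest of each list gave 37.2%, 28.5%, 23.9%, 13.0% and 78.7%, and the mean difference was 3.33 points. It was 1.32 points without untreated list 2 and -4.91 without treated list 3, whose own difference rests on 3 end peaks. It was -12.4 when each list was cut to as many top-scoring peaks, -5.82 with scores at or above the pooled median and -5.14 against the adjoining stretches. Between groups, the shared percentage of end peaks was 30.7 ± 15.1 without the drug (SD, n = 2) and 45.5 ± 49.5 with it (SD, n = 3; exact two-sided permutation p = 0.9; the smallest p for 2 against 3 lists is 0.1), and without treated list 3 the difference of 14.8 points became -12.5. A list's length sets how many partners its peaks can meet, and the lists differ in length, so these percentages are not rates per site. The ends were also chosen where treated list 2 is dense, so these sharing tests are not independent of that choice.

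The low figure of treated list 2 was not confined to these ends. It shared 6.06% of its 165 peaks in the stretches next to the ends and 3.52% of its 199 peaks on chromosome 17 from 75 Mb, another dense end. On chromosome 1 below 5 Mb, which holds a recurrent cluster, it shared 21.6% of 245. Outside that cluster the figure was 11.2%. Conversely, treated list 2 overlapped 8 of the 29 end peaks of untreated list 1 (27.6%), 8 of 55 of untreated list 2 (14.5%) and 9 of 42 of treated list 1 (21.4%). Elsewhere it overlapped 32.0%, 26.6% and 21.2% of these lists.

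Peaks of treated list 2 in the ends were also far from those of other libraries at a wider scale. The nearest peak of any other list lay at a median distance of 100.6 kb for its end peaks and 41.1 kb for its other peaks. Within 10 kb of such a peak were 63 of 500 (12.6%) and 32.8%. Its own peaks were closer together in the ends, at a median of 18.5 kb to the next peak of the same list against 31.8 kb elsewhere. The ends were chosen where this list is dense, so its closer spacing there is only a description. For untreated list 1, untreated list 2 and treated list 1, 75.9%, 52.7% and 69.0% of end peaks had a peak of another list within 10 kb, against 67.8%, 58.9% and 56.3% of their other peaks, higher in the ends in 2 of these lists and lower in untreated list 2.

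**Figure D3:**
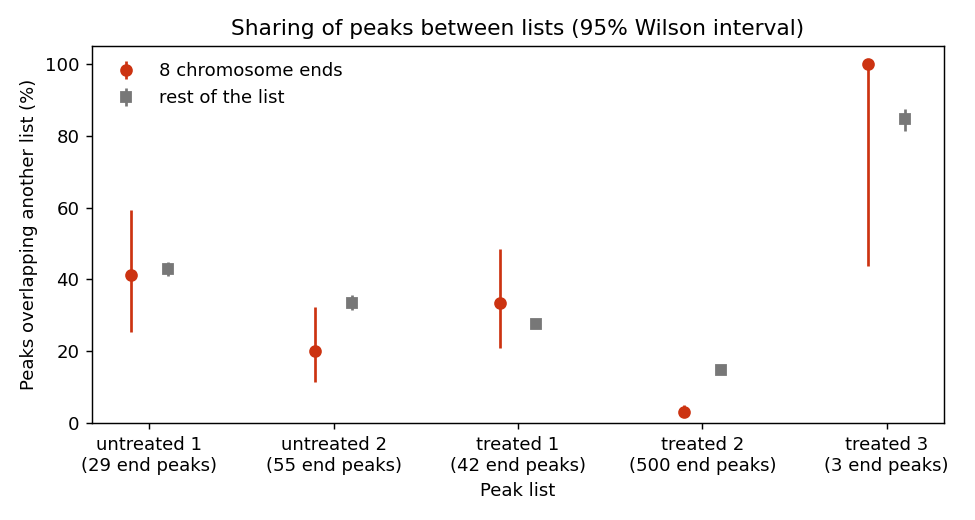
Percent of peaks that overlap a peak of another list (y axis) in each list (x axis), for peaks in the 8 ends (red circles) and in the rest of the list (grey squares), with 95% Wilson intervals. In treated list 2 the values were 3.20% and 14.7%, and treated list 3 has only 3 end peaks.

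The 2 end regions found with and without the drug in all 5 lists lay on 7p and 20q. The first, chr7:4850986-4851482, scored 15.6 and 9.76 without the drug and 30.1, 16.4 and 9.86 with it, in the order of the list numbers. These scores stood at the 82.9, 90.8, 97.2, 97.3 and 66.9 percentile of their lists, and the region held the highest-scoring end peak of untreated list 1, treated list 1 and treated list 3. It was high in every list, and the groups overlapped. The second, chr20:62719723-62720341, scored 11.6 and 10.9 without the drug and 5.14, 10.9 and 5.30 with it. It stood at the 72.4, 93.3, 17.6, 94.7 and 27.4 percentile, high in 3 lists and low in treated lists 1 and 3, and was the highest-scoring end peak of untreated list 2. The score was given by the authors for each peak on a scale that no source names, so scores are read only as ranks within a list.

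Among the regions in 3 lists, those of highest mean percentile were on 11p, 2q and 16p. The region chr11:2257852-2258324 was in untreated list 2 (score 10.6, percentile 93.0), treated list 1 (29.1, 96.9) and treated list 2 (41.7, 99.5), where it was the highest-scoring end peak. The region chr2:241499018-241499481 was in untreated list 1 (percentile 72.4) and treated lists 1 and 2 (96.9 and 99.0). On 16p, chr16:2917003-2917308 was in the same 3 lists, at the 69.1, 91.9 and 96.1 percentile. Treated lists 1 and 2 held all 3 of these regions, each with 1 untreated list.

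The remaining regions in 3 lists ranked lower or less evenly. On 16p, chr16:4796686-4797129 stood at the 69.1 and 28.3 percentile of untreated lists 1 and 2 and at the 97.3 of treated list 2. On 9q, chr9:140739404-140740060 stood at the 59.5 of untreated list 2 and at the 90.9 and 58.8 of treated lists 1 and 2. On 11p, chr11:1213294-1213714 stood at the 18.3, 1.18 and 41.5 of untreated lists 1 and 2 and treated list 2, and was weak in each.

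Regions held throughout one group and absent from the other were few, in the ends as in the series as a whole. A single end region was held by both untreated lists and by none of the treated (0.168% of end regions, against 0.186% of all regions). It was chr2:243153727-243154156, with scores of 9.98 and 5.61, at the 65.4 and 57.3 percentile, and it holds the outermost peak of any list on 2q. No end region was in all 3 treated and no untreated list, against 0.24% of all regions. With 3 end peaks in treated list 3, that count could not exceed 3. Without treated list 3, 3 regions were in treated lists 1 and 2 and in no untreated list. These were chr7:1879520-1880135 (percentiles 88.9 and 96.7), chr22:46581049-46581379 (88.9 and 94.1) and chr9:141134974-141135476 (58.7 and 25.8), the last at the outermost position of 9q. Regions in treated lists 1 and 2 alone made up 0.504% of end regions, against 2.25% of all regions. The ends were chosen where treated list 2 is dense, and its unshared peaks lower the share of every other pattern there. These shares are therefore only a description. No single region could be tested with 2 against 3 lists.

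Pairs of lists shared the other named regions. Untreated list 1 and treated list 1, which share an identifier, were the only holders of chr22:50780242-50780456 (percentiles 71.4 and 90.5), chr9:136240425-136240634 (70.1 and 87.9) and chr7:2417196-2417444 (5.04 and 50.9). Regions in these 2 lists alone were 0.504% of end regions, against 0.976% of all regions. Treated lists 1 and 2, whose identifiers differ, also had 3 end regions to themselves, 0.504% of end regions against 2.25% of all regions. Treated lists 2 and 3 alone held chr2:242555303-242555903, at the 47.0 and 19.3 percentile. That pattern made up 0.168% of end regions, against 0.293% of all regions. Treated list 2 alone held 81.3% of end regions, against 51.7% of all regions, and the ends were chosen where it is dense. That lowers the share of every other pattern in the ends, so these shares are only a description. On 20q, chr20:62564785-62565848, 1064 bp wide once merged, was in untreated list 2 and treated list 2, and chr20:61306751-61307202 was in untreated list 1 and treated list 2. The single recurrent region of 16q, chr16:86005997-86006543, was in untreated list 2 (percentile 51.1) and treated list 2 (11.5). The next regions of 16q by rank, chr16:89145875-89146268 and chr16:88760089-88760394, were in treated list 2 alone, at the 96.0 and 93.2 percentile. On 11p, 16p and 22q the next by rank were also single: chr11:330459-330869 and chr22:47684441-47684751 in treated list 2 and chr16:3037749-3038192 in untreated list 2.

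**Figure D4:**
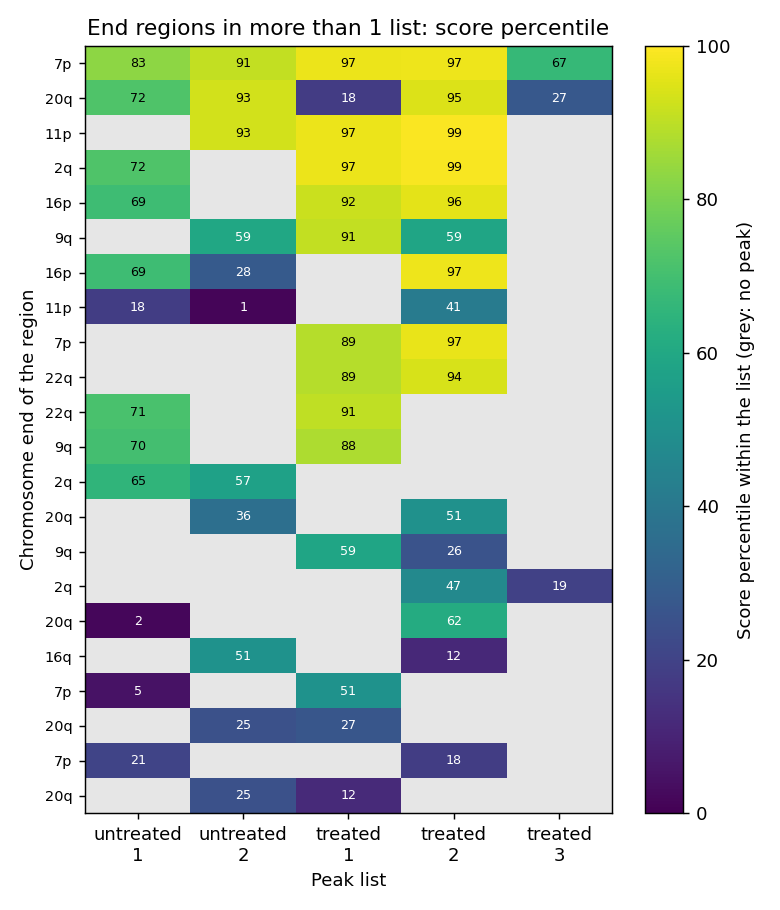
The 22 end regions in more than 1 list (rows, named by their chromosome end, ordered by number of lists and then by mean percentile), with the percentile of the score within each list (columns; grey where the list has no peak). The 7p region in the top row ranks at 66.9 or above in all 5 lists.

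The score rank of end peaks was near the middle of the 4 longer lists and lower in treated list 3. The median percentile was 43.5 and 46.1 without the drug and 49.3, 47.0 and 27.4 with it, the last from 3 peaks. The rest of each list stood at 50.1, 50.3, 49.99, 47.0 and 50.2. The difference was below 0 in 4 lists and 0 in treated list 2, with a mean of -6.85 percentile points ± 9.32 (SD, n = 5; exact sign-flip permutation p = 0.125). With the difference of treated list 2 at 0, 0.125 is the smallest p this test could give. Without treated list 3 the mean difference was -2.86. In treated list 2 both medians fell on the same score, 4.89, which is among its 3 commonest, so they are tied. Its lower quartile was at the 25.8 percentile in the ends and elsewhere, and its upper quartile at 67.9 in the ends and 75.5 elsewhere. Averaged over the lists of a group, the median percentile was 41.2 ± 12.1 with the drug and 44.8 ± 1.83 without it (SD, n = 3 and 2). The treated minus untreated difference was -3.60 points (exact permutation p = 1.0). Without treated list 3 it was 3.33, and with group medians in place of means it was 2.16.

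The strongest peaks were unevenly placed. In treated list 2, 20 of 500 end peaks (4.0%) were in the top 10% of the list by score, against 9.96% of its other peaks. In untreated list 1 it was 0 of 29, in untreated list 2 6 of 55 (10.9%), in treated list 1 6 of 42 (14.3%) and in treated list 3 0 of 3. The lists therefore did not move one way. Shared end peaks ranked above unshared ones in the 4 lists that have both, with median percentiles of 69.1 and 32.0 in untreated list 1, 51.1 and 45.0 in untreated list 2, 88.9 and 46.3 in treated list 1 and 77.9 and 47.0 in treated list 2. Elsewhere in the genome shared peaks ranked above unshared ones as well, at 82.4 and 47.0 in treated list 2, for example. Of the 16 shared end peaks of treated list 2, 8 were in its top 10%.

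Peak widths in the ends followed the list more than the place. Untreated medians were 213 and 384 bp, and treated medians 211.5, 310.0 and 214 bp. The rest of each list had medians of 235, 375, 234, 324 and 243 bp. End peaks were narrower in 4 lists and wider in untreated list 2, a mean difference of -15.7 bp ± 14.8 (SD, n = 5; exact sign-flip permutation p = 0.125). With the adjoining stretches in place of the rest of the list the difference was 9.10 bp, so its direction depends on the reference. The treated mean was 245.2 ± 56.2 bp (SD, n = 3) and the untreated 298.5 ± 120.9 bp (SD, n = 2; exact permutation p = 0.6), and without untreated list 2 the treated lists were wider by 32.2 bp. The narrowest untreated peaks measured 199 and 332 bp and the narrowest treated peaks 193, 291 and 200 bp, which bounds these medians from below.

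Among the ends, 20q had the widest peaks of treated list 2, at a median of 357 bp against 291 to 328 bp at the other 7 ends. In treated list 1, in contrast, the 20q median was 201 bp and that of the other 7 ends together 216 bp. In untreated lists 1 and 2 the 20q medians were 213 and 390 bp, against 213 and 369 bp at the other ends together. The single widest end peak of each list was on 9q or 20q. These were a 1304 bp peak of treated list 2 at chr9:140779526-140780829, a 513 bp peak of treated list 1 at chr9:141086970-141087482, and peaks of 603, 355 and 339 bp at 20q in untreated lists 2 and 1 and treated list 3. The 9q peak of 1304 bp ranked at the 58.1 percentile and had no counterpart in another list.

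**Figure D5:**
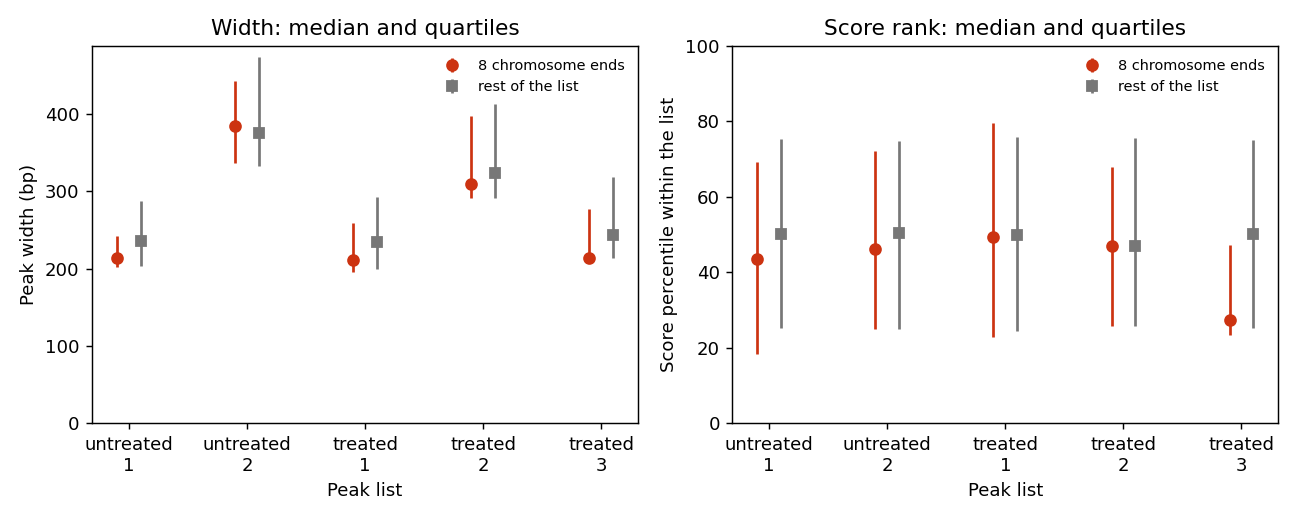
Peak width in bp (left) and score percentile within the list (right) for end peaks (red circles) and the rest of each list (grey squares), as medians with bars from the lower to the upper quartile. Widths separate the lists more than they separate ends from the rest, and the percentile medians of the 4 longer lists lie between 43.5 and 50.3.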

How the data were processed

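The authors deposited 1 peak list for each of the 5 p300 libraries. Peaks were called with MACS2 on hg19, per the submitters' processing notes. The version, threshold, aligner and matching input were not given in the sources used here. A deposited list gives chromosome, start, end, name and a score per peak, whose scale is not named, so depth is unknown and the score served for ranks within a list. Starts are given counted from 1. Peaks were assigned to an end by their midpoint. Overlap by 1 bp or more counted as shared. The members and settings were chosen with earlier results of these data known.

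The list was the unit. Groups were compared by an exact two-sided permutation test over 10 splits for sharing, width and rank. Ends were compared with the rest of a list by an exact sign-flip test over 5 lists. The ends were chosen by peak density, not directly by these measures. Sharing depends on density, however, so the sharing tests are not independent of that choice. Named were up to 3 regions per end, by number of lists and then mean percentile, at most 10 held by one group's lists throughout and by none of the other's, and the highest-scoring and widest end peak of each list. The 2 reference ends on chromosomes 1 and 17, the distance steps and the top 10% were chosen after seeing the data. The counting was tested on simulated data. Python 3.11.15, numpy 2.4.6, pandas 2.3.3, scipy 1.17.1 and matplotlib 3.10.9 were used.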

Additional observations from a re-analysis of the deposited data

How the results depend on the processing

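Of 223 alternative values, 165 kept their direction or stayed near the reported value, 43 changed sign and 15 counts moved by more than 1.5 times. No comparison could reach 0.05 with 5 lists, so these results say nothing on significance. The cause of each change was not tested.

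Treated minus untreated share of the list (percentage points) changed sign with group medians (all ends -1.12, 2q -0.047, 7p -0.023, 9q -0.036). With equal numbers of top-scoring peaks it was -0.22 for all ends, -0.032 at 9q and at 22q, 0.095 at 16p and 0.063 at 16q. With scores at or above the pooled median, 16q gave 0.12. In pairs by name identifier, chosen after seeing the data, it was -1.26 for all ends, -0.11 at 2q, -0.056 at 7p, -0.076 at 9q and -0.030 at 22q.

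The replicate block pairs lists by number alone, for numbers 1 and 2. It gave a share of 0.94 points for all ends, 0.059 at 11p and 0.043 at 16q, a shared percentage of -12.4 points, a width of -37.75 bp and a percentile of 3.33, the smallest p being 0.5.

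The treated minus untreated percentile was 0.96 with scores at or above the pooled median, 2.10 with ends shortened to the outer part and 2.16 with medians. The width difference was 3.25 bp with equal numbers of top-scoring peaks. Ends minus rest gave 0.48 points of sharing and 2.3 bp with shortened ends, 3.33 points without recurrent clusters and 9.1 bp against the adjoining stretches. End regions in more than 1 list numbered 10 with scores at or above the pooled median, 5 with equal numbers and 14 with shortened ends. Those in all 5 lists numbered 1 in each of these settings, and those in both untreated lists only numbered 0 in the first 2.

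Leaving out each list in turn gave these ranges. Share differences ran from -1.26 to 0.94 for all ends, -0.11 to 0.34 at 2q, -0.056 to 0.42 at 7p, -0.076 to 0.16 at 9q, -0.17 to 0.096 at 11p, -0.14 to -0.0084 at 16p, -0.14 to 0.043 at 16q, -0.54 to -0.022 at 20q and -0.030 to 0.12 at 22q. Shared percentages ran from -12.5 to 27.6, widths from -138.8 to 32.2 bp, percentiles from -7.65 to 3.33 and sharing in ends minus rest from -4.91 to 1.32. Regions in more than 1 list numbered 14 to 21, those in untreated lists only 1 to 45 and those in treated lists only 0 to 3. With an untreated list left out, "untreated only" means the other list alone.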

Other observations

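The authors' scores repeat across peaks. The 3 commonest scores of a list were carried by 36.4% of the end peaks of treated list 2 and 18.7% of its other peaks. In untreated list 1 the values were 27.6% and 11.5%, in untreated list 2 23.6% and 11.2%, and in treated list 1 21.4% and 12.3%. Treated list 3 had 0 of its 3 end peaks at such a score, against 5.33% elsewhere. End peaks thus carried a repeated score more often in the 4 lists with more than 3 end peaks. This was looked for after seeing the data and was not tested.

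In untreated list 1 none of the 29 end peaks lay within 10 kb of another peak of the same list, against 27.8% of its other peaks. The values were 7.27% and 21.9% in untreated list 2, 4.76% and 38.0% in treated list 1, and 35.8% and 30.3% in treated list 2. In treated list 3 they were 0 of 3 and 37.9%. The other peaks include those of the recurrent clusters, which lie close together and held no end peak, so the contrasts are not like for like. The ends were chosen for density, that of treated list 2 above all, so its higher value in the ends is only a description.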
